A study of Mus musculus with 7 samples.

Results

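Potassium channel genes outside the Kv4 complex were examined in hippocampal RNA-seq from male CD1 mice. The genes were chosen by symbol alone, as protein-coding genes of the Kcna, Kcnb, Kcnc, Kcnf, Kcng, Kcnh, Kcnk, Kcnma, Kcnmb, Kcnn, Kcnq, Kcns, Kcnt, Kcnu and Kcnv series. Of 66 such symbols, 57 had at least 10 counts summed over all libraries and are described here, out of 55416 gene identifiers in the count data, of which 26822 had a count. The other 9 (Kcna7, Kcna10, Kcnk7, Kcnk15, Kcnk16, Kcnk18, Kcnmb3, Kcnn4 and Kcnv2) stayed below that minimum. CD1 is an outbred stock, so the mice were not genetically identical. The control group was untreated and gave 3 libraries (replicates 1 to 3). DMSO-treated mice received the vehicle, in the volume used for ONX-0914, intraperitoneally 2 times a week for 2 months. They gave 2 libraries (replicates 2 and 3). ONX-0914-treated mice received 10 mg/kg of the immunoproteasome inhibitor intraperitoneally 2 times a week for 2 months and gave 2 libraries (replicates 1 and 2). Animals were age-matched, with no age stated, and the labels do not say which of the treated animals were sequenced or whether a library is 1 mouse. Therefore, the p-values below measure the spread between these libraries, which may be partly technical.

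Potassium channels let potassium ions leave the cell along their gradient and thereby set the resting potential, end the action potential and limit repetitive firing. Voltage-gated Kv channels are tetramers of alpha subunits, some of which carry cytoplasmic beta subunits. Kv1 channels sit mainly along axons and near synaptic terminals, Kv2 channels on the soma and proximal dendrites, and Kv3 channels in fast-spiking interneurons. Kv7 channels carry the M-current that muscarinic receptors suppress. BK, SK and Slo2 channels respond to intracellular calcium or sodium, and tandem-pore (K2P) channels carry background leak. In the hippocampus, these currents shape the excitability of pyramidal cells and the depolarization reached during synaptic stimulation.

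The selectivity filter lines the pore of potassium channels and is found in pore-forming but not in auxiliary subunits, which is why it is shown. It played no part in the choice of the genes. In the longest coding sequence of each gene in GENCODE M21 (GRCm38, the reference strain and not CD1), 5 consecutive codons were searched in frame on the coding strand. They had to encode threonine or serine, then valine, isoleucine, leucine, phenylalanine or methionine, then glycine, then tyrosine, phenylalanine, leucine or cysteine, and then glycine. Of the 57 genes, 42 had 1 match, 9 had 2 and 6 had none, whereas 388 of 21527 protein-coding genes (1.8%) had a match. The 9 with 2 matches are all K2P genes, whose subunits have a pair of pore loops. The 6 without a match are the cytoplasmic Kv beta genes Kcnab1, Kcnab2 and Kcnab3 and the BK beta genes Kcnmb1, Kcnmb2 and Kcnmb4, none of which forms a pore. The stretches for 4 pore-forming genes whose levels are described below are given 5′ to 3′ with the 15 bases of the signature in capitals and 6 bases on each side.
Kcnt1: ttctcaACTGTGGGCTTCGGTgatgtg
Kcna6: atgaccACGGTAGGTTATGGGgacatg
Kcnh3: ctcaccAGTGTGGGCTTCGGCaacgtg
Kcnk2, first pore loop: atcacaACCATAGGATTTGGAaacatc
Kcnk2, second pore loop: ctgacgACCATTGGATTTGGAgactac
The signature begins at codon 295 of 1238 in Kcnt1, at codon 422 of 529 in Kcna6 and at codons 157 and 266 of 426 in Kcnk2. Kcnab2, with 382 codons, has no such stretch, and it is the gene of the group with the highest level.

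The libraries held 2842675 to 3877006 counts on genes, except for ONX-0914 replicate 2 with 13782270, so that counting error was smallest there. The labelled tissue was checked with marker genes. The 5 markers each of CA1, CA3 and dentate gyrus were detected in every library. In ONX-0914 replicate 1, however, all of them lay below all 3 control libraries, while 9 of 10 markers of thalamus and midbrain, all 9 of striatum and all 7 of oligodendrocytes lay above them. The thalamus and midbrain markers summed to 860.3 CPM (counts per 1000000 on genes, scaled by TMM) in this library against 77.7 to 96.7 in control, and 78.2 CPM in ONX-0914 replicate 2. Of the 10, 2 were at 0 in replicate 2 (Pax7 and Gata3), and 2 were at 0 in all control libraries (Irx2 and Pax7). The striatum markers summed to 1222 CPM against 219 to 252 in control, and 177 CPM in replicate 2. ONX-0914 replicate 2 differed in another way, with 837 CPM of blood markers against 30 to 40.1. Its microglial markers summed to 418 CPM against 261 to 275, with 4 of 6 above and 2 below all control libraries. Its CA3 markers summed to 1320.3 CPM against 3718 to 3927, with 1 of 5 above and 3 below all control libraries. Its CA1 markers summed to 639.6 CPM against 562 to 633, with 2 of 5 above and 2 below all control libraries. Dentate gyrus markers summed to 333 CPM there against 388 to 494, with 1 of 5 above and 4 below. Neocortex markers summed to 341 CPM in replicate 2 against 220 to 289, with 4 of 6 above and 1 below, and to 204 CPM in replicate 1, with 2 above and 4 below. Astrocyte markers summed to 1375 CPM in replicate 2 against 1995 to 2523, with 0 of 5 above and 4 below. Mitochondrial genes took 3.71% of the counts of replicate 2, against 0.82% to 1.59% in the other libraries. All 5 endothelial markers lay above control in both ONX-0914 libraries (summed 232 and 211 CPM against 129 to 143). Both ONX-0914 libraries thus stood apart from the others, and differed from each other, and the part of these differences in the results below was not tested. In bulk tissue, fewer cells of a type and less RNA per cell cannot be told apart.

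**Figure D1:**
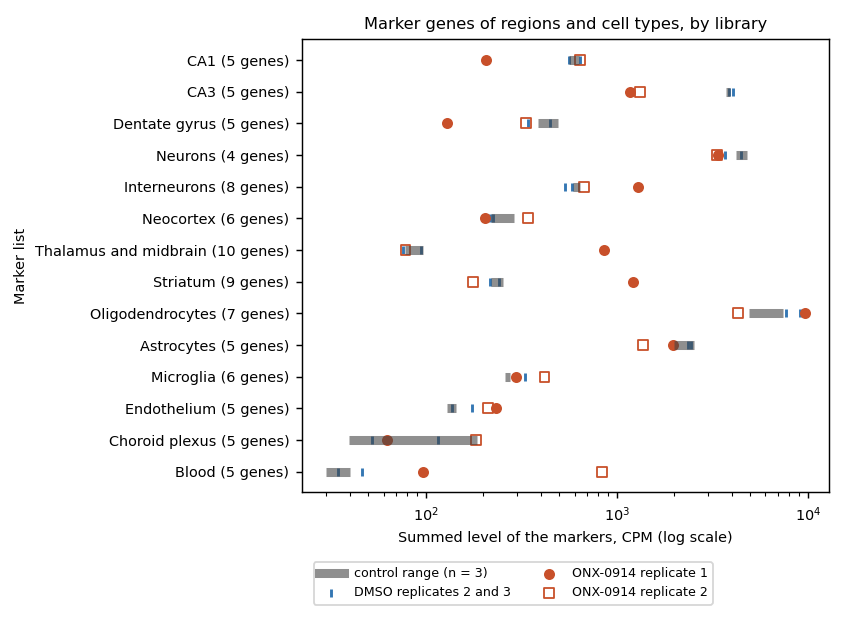
Summed level of each marker list in CPM (log axis) for the control range (grey bar, 3 libraries), the DMSO libraries (blue ticks) and ONX-0914 replicates 1 (filled circles) and 2 (open squares). Replicate 1 is far to the right for thalamus and midbrain (860.3 CPM) and striatum (1222 CPM), and replicate 2 for blood (837 CPM).

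In control hippocampus, the potassium channel genes covered a wide range of levels, compared here as CPM per kb of exon. Kcnab2, the gene of the Kv beta2 subunit that joins Kv1 channels and promotes their axonal targeting, had 353 ± 7.38 CPM per kb (SD, n = 3). Kcna2 (Kv1.2, 24.6 ± 2.63), Kcnk1 (the K2P channel TWIK-1, 24.0 ± 1.78) and Kcnab1 (Kv beta1, 20.4 ± 1.56 CPM per kb) were among the genes that followed, so that Kcnab2 had 14.4 times the level of Kcna2. Thereafter the order was not resolved in most places, since the control ranges of 52 of the 56 neighbouring pairs overlapped. The steps below Kcnab2 and Kcnq3 were among the exceptions.

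By subfamily, the highest control levels belonged to Kcna2 for Kv1, Kcnab2 for Kv beta, Kcnc1 (Kv3.1) for Kv3 with 19.2 ± 1.44 CPM per kb, and Kcnf1 (Kv5.1) for the silent subunits with 12.5 ± 3.64. Among the other classes they belonged to Kcnh3 (Kv12.2, an ELK channel) with 7.91 ± 0.787, Kcnma1 (the pore of BK) with 13.9 ± 0.244, Kcnn1 (SK1) with 3.91 ± 0.41 and Kcnt1 (the sodium-activated Slack channel) with 1.85 ± 0.258 CPM per kb (SD, n = 3 each). Kcnk1 led the K2P genes. Altogether 16 genes exceeded 10 CPM per kb, 13 stayed under 1 CPM per kb, and the median was 3.91 CPM per kb. Neither Kcnt1 nor Kcna3, which are among the genes with the largest ratios between ONX-0914 and control below, was abundant in control.

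**Figure D2:**
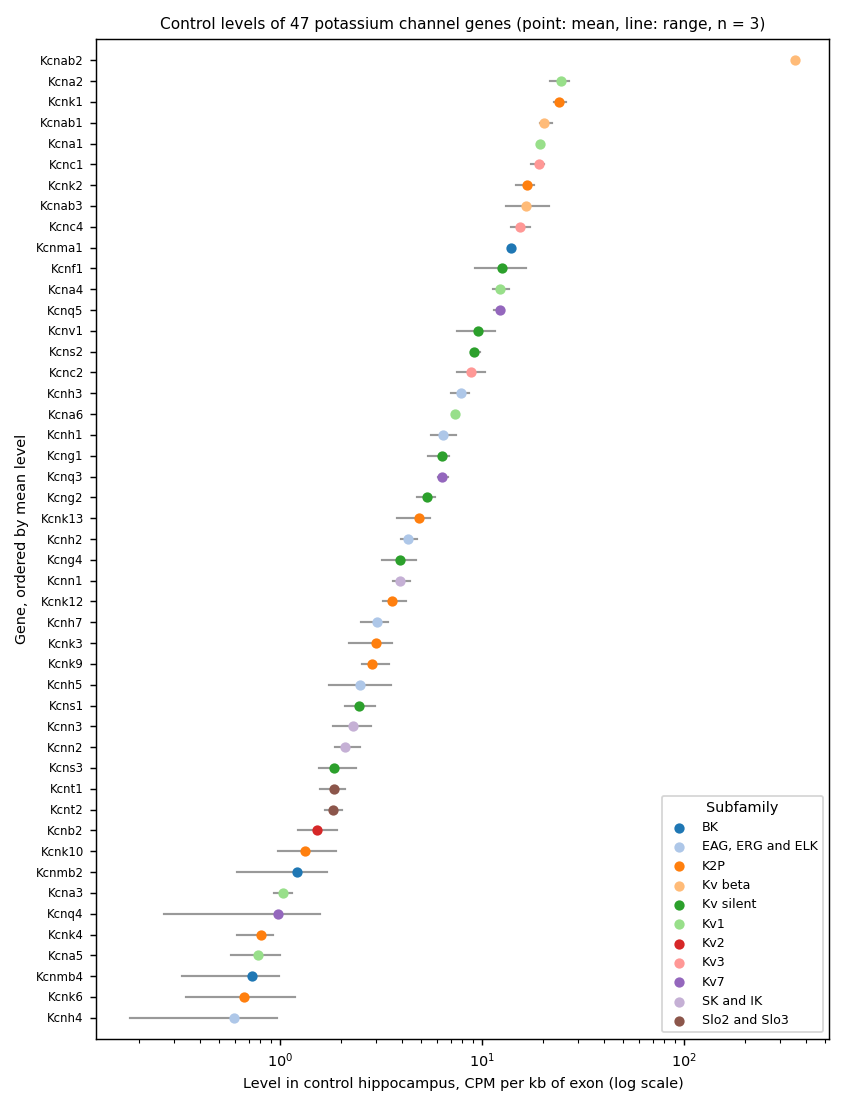
Control level of 47 of the 50 tested genes in CPM per kb of exon (log axis), with the mean as a point coloured by subfamily and the range of the 3 control libraries as a line. Kcnab2 stands alone at 353 CPM per kb, and most neighbours overlap.

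Differential expression was tested with edgeR's quasi-likelihood test over all genes that passed the filter on low counts, with 1 mean per group over all 7 libraries, and a gene was called at a Benjamini–Hochberg FDR under 0.05. Of the 57 genes, 50 passed the filter, among 13152 genes tested. Between ONX-0914-treated and control mice, none of the 50 was called, where the test called 0.114% of all genes, 0.038% higher and 0.076% lower with ONX-0914. At an unadjusted p under 0.05 there were 14 of the 50, 8 of them higher and 6 lower with ONX-0914, or 28.0% against 18.6% of all genes (10.6% higher and 8.04% lower). An FDR under 0.1 was reached by Kcnt1 and Kcnab2, against 1.48% of all genes, and DESeq2, applied to the same counts, called these same 2 genes and 2.95% of all genes. The Log2FC was positive for 33 genes (66.0%, against 53.8% of all genes) and negative for 17, with a median of 0.23 against 0.05 over all genes tested. With total counts in place of TMM scaling, these medians were 0.38 and 0.19, and 38 genes were positive and 12 negative. The direction of the median rested on ONX-0914 replicate 2, since it was −0.24 without that library (18 genes positive and 33 negative) and 0.21 without replicate 1 (32 and 19). Both ONX-0914 libraries lay above all control libraries for 7 genes and below them for 10, against 16.9% and 16.3% of all genes, so that the shares among the 50 genes (14% and 20%) were near those of all genes. The count of called genes depended on the ONX-0914 libraries. Without ONX-0914 replicate 1, 25 of 51 genes were called, where 51.2% of all genes were, and without replicate 2, 28 of 51 were, against 19.0% of all genes. With a single ONX-0914 library the spread comes from the control and DMSO libraries alone, and the lone library is assumed to vary like them.

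**Figure D3:**
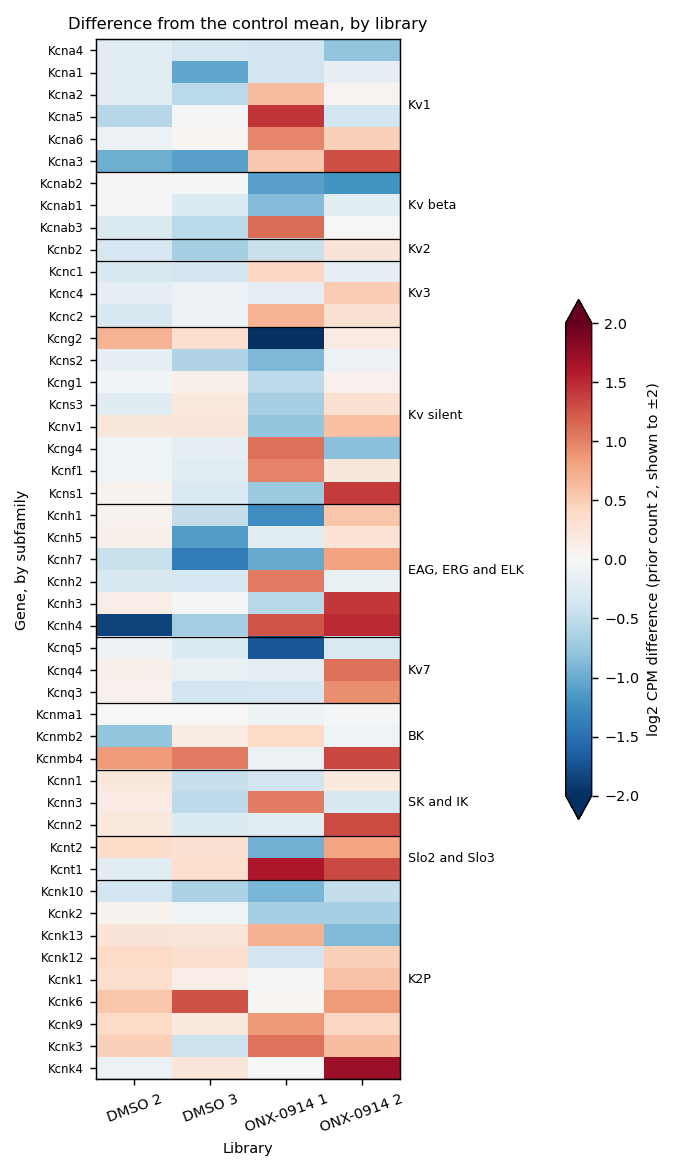
Difference of each treated library from the control mean in log2 CPM (prior count 2, colours limited to ±2) for 47 of the 50 tested genes, grouped by subfamily and ordered by Log2FC within it. Kcnt1 is red and Kcnab2 blue in both ONX-0914 columns, while genes such as Kcng2, Kcnh3 and Kcns1 change colour between them.

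The gene with the smallest p was Kcnt1 (ENSMUSG00000058740). It had 15, 18 and 19.8 CPM in the control libraries, 15 and 22.1 CPM in the DMSO libraries, and 54.4 and 44.1 CPM in ONX-0914 replicates 1 and 2. Both ONX-0914 libraries were above every other library, and the DMSO and control libraries overlapped. The Log2FC against control was 1.47 (SE 0.234, FDR = 0.0604, edgeR), a 2.78-fold higher level. DESeq2 gave a Log2FC of 1.46 (FDR = 0.000969). Over 16 alternatives the Log2FC lay between 1.30 and 1.61, and the highest FDR of these fits was 0.358. It was 1.30 when ONX-0914 replicate 1 was left out, the library with markers of thalamus and midbrain, and 1.61 without replicate 2. Its relative Kcnt2 (Slick) had 12.5, 13.9 and 11.6 CPM in control, 16.4 and 15.7 CPM with DMSO, and 6.29 and 22 CPM with ONX-0914, so that the ONX-0914 libraries fell on opposite sides of control (Log2FC = 0.24, FDR = 0.783, edgeR).

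Kcnab2 (ENSMUSG00000028931) had 1983, 2003 and 1924 CPM in control, 2006 and 1910.2 CPM with DMSO, and 930.5 and 864 CPM with ONX-0914. The control and DMSO libraries lay within a narrow band, and both ONX-0914 libraries lay far below it, with no overlap. The Log2FC was −1.14 (SE 0.202, FDR = 0.0728, edgeR), which leaves 45.5% of the control level, and over 16 alternatives it lay between −1.20 and −1.0. DESeq2 called Kcnab2 with a Log2FC of −1.15 (FDR = 6.35e-07), whereas edgeR without control replicate 2 gave −1.12 (FDR = 0.376). Over the same libraries, the CA3 markers summed to 1166 and 1320.3 CPM with ONX-0914 against 3718 to 3927 in control. All 5 lay below all control libraries in replicate 1, and 3 lay below and 1 above in replicate 2. The 4 markers of neurons in general summed to 3373 and 3338 CPM against 4191 to 4777. Of these, 3 lay below and 1 above all control libraries in replicate 1, and all 4 lay below in replicate 2. The part of these markers in the level of Kcnab2 was not tested.
The other Kv beta genes differed from each other. Kcnab1, of Kv beta1, which confers inactivation on Kv1 channels, had 166, 169 and 191 CPM in control and 96.1 and 149 CPM with ONX-0914, so that both ONX-0914 libraries lay below control here as well (Log2FC = −0.51, SE 0.218, FDR = 0.264, edgeR). Kcnab3 had 37.8, 42.5 and 61.4 CPM in control, 37.8 and 31.8 CPM with DMSO, and 101 and 46.6 CPM with ONX-0914. Only replicate 1 exceeded the control range there (Log2FC = 0.62, FDR = 0.349, edgeR).

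Among the Kv1 alpha genes, Kcna6 (Kv1.6) and Kcna3 (Kv1.3, which is also prominent in microglia and lymphocytes) were higher in both ONX-0914 libraries, and Kcna4 (Kv1.4, an A-type channel of axons) and Kcna1 (Kv1.1) were lower. Kcna6 had 44.6, 42.5 and 44.1 CPM in control, 40.2 and 45.0 CPM with DMSO, and 86.6 and 61.4 CPM with ONX-0914, with no overlap between ONX-0914 and the other groups. Its Log2FC was 0.75 (SE 0.193, FDR = 0.133, edgeR). Kcna3 had only 1.78, 2.18 and 1.93 CPM in control and 0.805 and 0.714 CPM with DMSO, against 3.02 and 5.35 CPM with ONX-0914. Here, too, the groups did not overlap, and the Log2FC was 1.17 (SE 0.429, FDR = 0.212, edgeR). Microglial markers summed to 298 and 418 CPM in the same ONX-0914 libraries against 261 to 275 CPM in control and 299 and 331 CPM with DMSO. Of the 6 markers, 4 lay above and 1 below all control libraries in replicate 1, and 4 above and 2 below in replicate 2. The part of these markers in the level of Kcna3 was not tested. Kcna4 had 65.6, 58.3 and 54.5 CPM in control, 50.4 and 46.8 CPM with DMSO, and 45.3 and 34.3 CPM with ONX-0914. The DMSO libraries lay between the groups (Log2FC for ONX-0914 = −0.59, SE 0.194, FDR = 0.182, edgeR).
Kcna1 had 91.6, 91.6 and 95.6 CPM in control, 79.4 and 45.0 CPM with DMSO, and 71.7 and 82.8 CPM with ONX-0914. All 4 treated libraries lay below control, the lowest being DMSO replicate 3, and the Log2FC with ONX-0914 was −0.26 (FDR = 0.559, edgeR). Kcna2, the most abundant Kv1 gene per length, had 297, 259 and 321 CPM in control and 450.0 and 304 CPM with ONX-0914, so that replicate 2 lay within the control range. Kcna5 had 2.85, 1.64 and 2.2 CPM in control and 6.54 and 1.59 CPM with ONX-0914, on opposite sides of control.

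**Figure D4:**
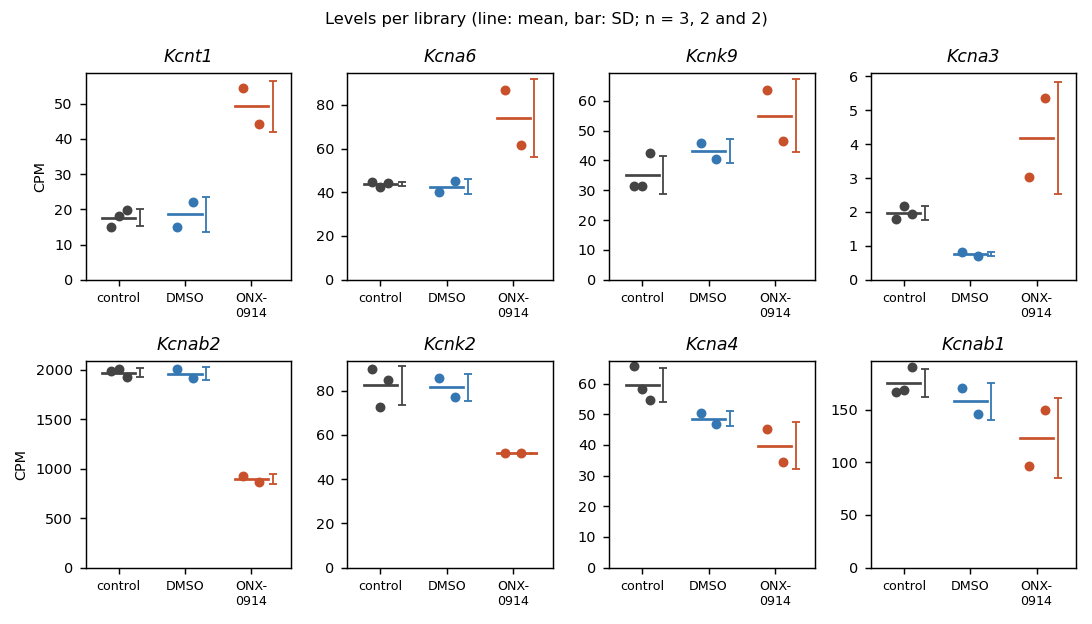
CPM per library (points) with the group mean (line) and SD (bar) for the 4 genes with the smallest p among those higher in both ONX-0914 libraries (top) and for 4 of those lower (bottom), for control (n = 3), DMSO (n = 2) and ONX-0914 (n = 2). The ONX-0914 points of Kcnt1 (54.4 and 44.1 CPM) lie above and those of Kcnab2 (930.5 and 864 CPM) below all other points, and none of the 8 genes reached an FDR of 0.05 (edgeR).

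Kcnb2, a Kv2 gene, overlapped between ONX-0914 and control (Log2FC = −0.06, FDR = 0.926, edgeR).
The 4 Kv3 genes all had a positive Log2FC with ONX-0914, between 0.15 and 0.51, but only Kcnc2 (Kv3.2, typical of parvalbumin and somatostatin interneurons) had both libraries above control. It had 73.8, 53.7 and 61.7 CPM in control, 50.2 and 57.5 CPM with DMSO, and 102 and 77.8 CPM with ONX-0914 (Log2FC = 0.51, SE 0.204, FDR = 0.238, edgeR). The lower ONX-0914 library lay just above the highest control library. Kcnc1 was high only in ONX-0914 replicate 1 (242 CPM against 166 to 191 in control, and 159.7 in replicate 2). The 8 markers of interneurons summed to 1291 and 672 CPM in replicates 1 and 2 against 590 to 641 in control, with 4 above and 2 below all control libraries in replicate 1, and 4 above and 4 below in replicate 2. Among them, Pvalb (parvalbumin) had 356 and 53.8 CPM in replicates 1 and 2 against 112 to 136 in control, and Sst (somatostatin) had 22.7 and 111 CPM against 25.1 to 31.9, and their part in the levels of Kcnc2 was not tested.

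The silent subunits do not form channels alone and modify Kv2 channels. Of the 8 tested, Log2FC values were positive for 4 (50.0%, against 53.8% of all genes) and negative for 4. None had an unadjusted p under 0.05 (edgeR), where 18.6% of all genes had, and none was called by DESeq2. Both ONX-0914 libraries lay below control for Kcns2 (Kv9.2), which had 49.6, 54.5 and 49.6 CPM in control, 44.8 and 33.6 CPM with DMSO, and 27.2 and 47.1 CPM with ONX-0914 (Log2FC = −0.45, FDR = 0.375, edgeR). The DMSO libraries lay in the same range as those with ONX-0914. Kcng2 (Kv6.2) had 14.3, 17.4 and 16 CPM in control, 26 and 20 CPM with DMSO, and 2.27 and 17.8 CPM with ONX-0914, the lowest value resting on replicate 1 alone. Kcng4 (Kv6.4) had 12.1 to 18 CPM in control and 32.2 and 8.13 CPM with ONX-0914, and Kcns1 (Kv9.1) had 5.70 to 7.99 CPM in control and 3.78 and 18 CPM with ONX-0914. Kcnf1, the most abundant of them, had 44.4 to 78.8 CPM in control and 117 and 68.3 CPM with ONX-0914.

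In the EAG, ERG and ELK class, 5 of 6 tested genes (83.3%, against 53.8% of all genes) had a positive Log2FC with ONX-0914, with a median of 0.36. Of the 6, only Kcnh4 (Kv12.3, an ELK channel) had both libraries above control, which is 16.7% against 16.9% of all genes. Kcnh4 had 0.713, 3.82 and 2.48 CPM in control, 0.268 and 1.07 CPM with DMSO, and 5.29 and 6.28 CPM with ONX-0914. These are few reads, and the Log2FC against control was 1.26 (SE 0.513, FDR = 0.241, edgeR). Kcnh3, whose channel opens at unusually negative potentials in forebrain neurons, had 46.3, 40.6 and 49.6 CPM in control, 49.9 and 44.3 CPM with DMSO, and 31.0 and 122 CPM with ONX-0914. Replicate 1 was the lowest and replicate 2 the highest of all libraries. Kcnh7 (Kv11.3, ERG3) had 38.5, 47.4 and 52.0 CPM in control, 33.5 and 17.1 CPM with DMSO, and 22.7 and 80.4 CPM with ONX-0914. Its ONX-0914 libraries also fell on opposite sides of control, while the lowest value was that of DMSO replicate 3. The Log2FC was 0.77 for Kcnh3 (FDR = 0.386, edgeR) and 0.19 for Kcnh7 (FDR = 0.849, edgeR), and both turned negative without ONX-0914 replicate 2.

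Of the Kv7 genes, Kcnq5 had both ONX-0914 values below control. Kcnq5 (Kv7.5) had 99.1, 88.6 and 95 CPM in control, 88.0 and 77.5 CPM with DMSO, and 28.4 and 76.5 CPM with ONX-0914 (Log2FC = −0.82, SE 0.354, FDR = 0.264, edgeR). The low value of replicate 1 carried most of this difference, since without it the Log2FC was −0.31. Kcnq3 (Kv7.3), a subunit of the M-channel, had 89.2 to 100 CPM in control and 73.2 and 178 CPM with ONX-0914, on opposite sides of control.

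Kcnma1, the pore of the BK channel, had the Log2FC nearest to 0 among the 16 genes over 10 CPM per kb, with 240.3, 232 and 236 CPM in control, 238 and 235 CPM with DMSO, and 221 and 232 CPM with ONX-0914 (Log2FC = −0.06, SE 0.149, FDR = 0.855, edgeR). All values lay within a narrow band, although ONX-0914 replicate 1 was the lowest. The BK beta4 gene Kcnmb4, of the neuronal beta subunit, had 2.85, 1.09 and 3.30 CPM in control, 4.29 and 5.0 CPM with DMSO, and 2.01 and 6.21 CPM with ONX-0914. None of the 3 tested SK genes had both ONX-0914 libraries on 1 side of control. Kcnn2 (SK2, the calcium-activated channel of hippocampal spines) had 13.9 to 18.5 CPM in control and 13.3 and 39.1 CPM with ONX-0914. Kcnn3 (SK3) had 19.1 to 29.5 CPM in control and 49.1 and 19.0 CPM, thus the reverse order.

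Among the K2P genes, 4 of the 9 tested had an unadjusted p under 0.05 (44.4%, against 18.6% of all genes), the acid-sensitive TASK genes Kcnk9 and Kcnk3 and the TRAAK gene Kcnk4 with higher and the TREK-1 gene Kcnk2 with lower levels. Kcnk2, a mechano- and lipid-gated leak channel, had 89.8, 72.5 and 84.8 CPM in control, 85.9 and 77.1 CPM with DMSO, and 51.6 and 51.9 CPM with ONX-0914. The ONX-0914 libraries were nearly equal and below all others, and the Log2FC was −0.67 (SE 0.172, FDR = 0.133, edgeR), or 62.9% of control. Leaving out ONX-0914 replicate 1 gave −0.67, and leaving out replicate 2 gave −0.67. Kcnk9 (TASK-3) had 31.4, 31.4 and 42.4 CPM in control, 45.9 and 40.3 CPM with DMSO, and 63.7 and 46.3 CPM with ONX-0914 (Log2FC = 0.64, SE 0.222, FDR = 0.199, edgeR). The lower ONX-0914 library was close to the higher DMSO library. Kcnk3 (TASK-1) had 14.3, 8.72 and 12.7 CPM in control, 16.4 and 8.57 CPM with DMSO, and 25.2 and 18.1 CPM with ONX-0914 (Log2FC = 0.85, SE 0.332, FDR = 0.229, edgeR).
Kcnk4 had 3.92, 2.73 and 4.13 CPM in control and 3.52 and 12.6 CPM with ONX-0914, so that its Log2FC of 1.29 (SE 0.522, FDR = 0.241, edgeR) came from replicate 2, with a value of −0.02 without it. Kcnk10 (TREK-2) was lower in both libraries, with 8.56, 10.1 and 16.5 CPM in control, 8.59 and 7.14 CPM with DMSO, and 5.79 and 8.00 CPM with ONX-0914 (Log2FC = −0.73, SE 0.343, FDR = 0.291, edgeR), and the DMSO libraries were in the same range. Kcnk1 had 50.9 to 58.1 CPM in control, 68.4 and 58.9 CPM with DMSO, and 52.9 and 80.3 CPM with ONX-0914, and only replicate 2 exceeded the control range.

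The ONX-0914 libraries differed from each other in these genes more than any other replicate pair. The median absolute log2 difference over the 50 genes was 0.76 between ONX-0914 replicates 1 and 2, against 0.22 to 0.26 between control libraries and 0.22 between the DMSO libraries. Over all 13152 genes, the corresponding values were 0.57, 0.19 to 0.21 and 0.21. Of the 50 genes, 19 (38.0%) lay over 2-fold apart between the ONX-0914 libraries, 13 of them higher in replicate 2, against 25.2% of all genes. Replicate 1 lay below and replicate 2 above all control libraries for 13 genes (26%), and the reverse held for 6 (12%), against 10.8% and 12.6% of all genes. The 6 genes with the largest gap, Kcng2, Kcns1, Kcnh3, Kcng4, Kcnh7 and Kcna5, are given above with their values. For such genes, the group mean describes neither library. When ONX-0914 replicate 1 was left out, the Log2FC against control changed sign for 14 of the 50 genes, and when replicate 2 was left out, for 16. Of the 6 genes with the largest gap, Kcng2 then had a Log2FC of 0.15, Kcng4 of −0.90 and Kcna5 of −0.46 without replicate 1, and Kcns1 of −0.83, Kcnh3 of −0.56 and Kcnh7 of −1.04 without replicate 2.

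**Figure D5:**
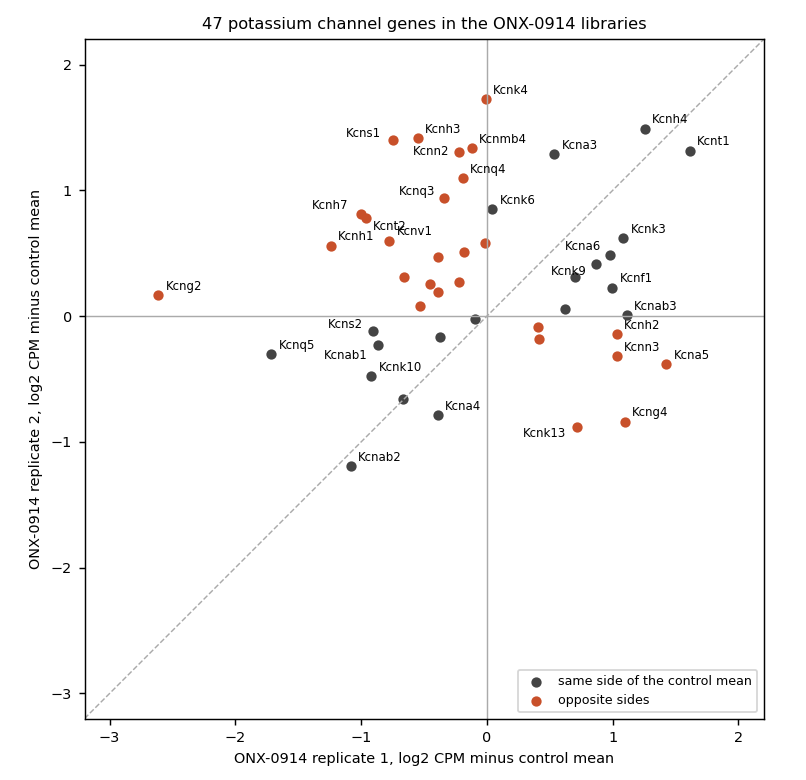
Each of 47 of the 50 tested genes by its difference from the control mean in ONX-0914 replicate 1 (x axis) and replicate 2 (y axis), in log2 CPM with a prior count of 2, with the dashed line marking equal differences. The 27 genes in orange lie on opposite sides of the control mean, and of the 20 in black, 11 are above and 9 below it in both libraries.

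With DMSO against control, none of the 50 genes was called by edgeR or DESeq2, where edgeR called 0.0152% (0.0076% higher and 0.0076% lower) and DESeq2 0.0684% of all genes. One gene had an unadjusted p under 0.05 (2.0% against 2.65% of all genes), namely Kcna1 with a Log2FC of −0.57 (SE 0.243, FDR = 1.0, edgeR). The Log2FC was negative for 35 of the 50 genes and positive for 15, with a median of −0.15 against −0.0032 over all genes. Both DMSO libraries lay below all control libraries for 12 genes (24.0%) and above them for 6 (12%), against 15% and 15.7% of all genes. All 6 Kv1 genes had a negative Log2FC, and 4 of them (Kcna1, Kcna2, Kcna3 and Kcna4) had both DMSO libraries below control. For Kcnh4 the Log2FC was −1.94 (SE 0.879, FDR = 1.0, edgeR), which rests on 4 counts in the DMSO and 25 in the control libraries. Summed per group over the summed library sizes scaled by TMM, this is a ratio of 0.248 with an exact 95% interval of 0.0626 to 0.717. For Kcna3, 5 counts against 20 gave a ratio of 0.387 (0.113 to 1.06). These intervals cover counting error only. Kcnh7, whose DMSO libraries had 33.5 and 17.1 CPM, had a Log2FC of −0.85 in this comparison and of −0.83 without ONX-0914 replicate 2. The higher genes with the smallest p were Kcnmb4 (Log2FC = 0.94), Kcnk6, of the K2P channel TWIK-2 (Log2FC = 0.81), and Kcnk9 (Log2FC = 0.30).

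Against the DMSO libraries, the vehicle for ONX-0914, no gene of the 50 was called with ONX-0914, where the edgeR test called 0.0456% of all genes, 0.0076% higher and 0.038% lower. At an unadjusted p under 0.05 there were 11 genes, 9 higher and 2 lower, or 22% against 14.7% of all genes (8.08% higher and 6.65% lower). The Log2FC was positive for 32 genes (64.0%, against 53.8% of all genes) and negative for 18, and scaling by total counts alone made this 38 and 12. Without ONX-0914 replicate 2, 21 were positive and 30 negative. DESeq2 called Kcnt1 and Kcnab2 and 1.81% of all genes, and edgeR called 22 of 51 genes without ONX-0914 replicate 1, where 46.0% of all genes were called, and 23 of 51 without replicate 2, against 17% of all genes. Both ONX-0914 libraries lay above both DMSO libraries for 12 genes (24.0%) and below for 7 (14%), against 20.8% and 19.7% of all genes. The Log2FC was 1.41 for Kcnt1 (SE 0.265, FDR = 0.116, edgeR) and −1.13 for Kcnab2 (SE 0.216, FDR = 0.12, edgeR). For Kcnk2 it was −0.65 and for Kcng2 −1.06 (FDR = 0.212 and 0.435, edgeR).
Kcna3 and Kcnh4 had the largest ratios in this comparison, on few reads in the DMSO libraries. Kcna3 had 93 counts with ONX-0914, 81 of them in replicate 2, and 5 with DMSO. Summed per group over the summed library sizes scaled by TMM, this is a ratio of 6.35 with an exact 95% interval of 2.62 to 20. Kcnh4 had 116 counts with ONX-0914, 95 of them in replicate 2, and 4 with DMSO, a ratio of 9.90 (3.76 to 36.9). These intervals cover counting error only and leave out the spread between libraries. The Log2FC was 2.51 for Kcna3 (SE 0.599, FDR = 0.168, edgeR) and 3.20 for Kcnh4 (SE 0.775, FDR = 0.171, edgeR). Both comparisons with control share the same control libraries, and both comparisons of ONX-0914 share the ONX-0914 libraries, so they are not independent.

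Genes of the group took 0.480% to 0.490% of all counts in control, 0.465% and 0.439% with DMSO, and 0.398% and 0.462% with ONX-0914. The difference of ONX-0914 from control had an exact two-sided permutation p of 0.2, the smallest that 2 against 3 libraries allow. Kcnab2 alone held 37.7% to 40.7% of these counts in control, 41.5% and 42.9% with DMSO, and 24.1% and 20.5% with ONX-0914. Without Kcnab2, the share of all counts was 0.285% to 0.305% in control, 0.272% and 0.251% with DMSO, and 0.302% and 0.367% with ONX-0914, and thus not below control.
Ratios between subunits of the same subfamily were chosen after their values were seen. Kcna2 had 4.44 to 5.89 counts per count of Kcna4 in control, 4.93 and 4.30 with DMSO, and 9.93 and 8.86 with ONX-0914. Kcna6 had 0.461 to 0.486 counts per count of Kcna1 in control, 0.507 and 1.0 with DMSO, and 1.21 and 0.741 with ONX-0914. Kcnab1 had 0.0838 to 0.0991 counts per count of Kcnab2 in control, 0.0848 and 0.0761 with DMSO, and 0.103 and 0.173 with ONX-0914. Kcnab3 had 0.0191 to 0.0319 counts per count of Kcnab2 in control, 0.0189 and 0.0166 with DMSO, and 0.108 and 0.0539 with ONX-0914. Of these 4 ratios, the ONX-0914 libraries overlapped the DMSO libraries only for Kcna6 to Kcna1. For each of the 4, the exact two-sided permutation p against control was 0.2, the smallest possible, before and after adjustment over the 4.

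The 7 genes that did not pass the filter had 18 to 58 counts over all libraries. Kcnh6 (ERG2) had 0, 3 and 2 counts in control, 2 and 2 with DMSO, and 12 and 23 with ONX-0914. Its ratio to control was 3.69 in counts summed per group over the summed library sizes scaled by TMM (exact 95% interval 1.44 to 12.1). In this ratio the deepest library weighs most, and such intervals cover counting error only. Kcnu1 (Slo3, known as the potassium channel of sperm) had 0, 3 and 2 counts in control, 7 and 5 with DMSO, and 2 and 39 with ONX-0914, with a ratio of 4.33 (1.71 to 14) that rests on replicate 2, the deepest library. Both DMSO libraries were also above control for Kcnu1. Kcng3, Kcnh8, Kcnk5, Kcnmb1 and Kcnq1 had 0 to 5 counts in each control library, 1 to 4 in each DMSO library, 0 to 7 in ONX-0914 replicate 1 and 6 to 21 in replicate 2. At this depth, none of the 7 genes was tested in the main fit, and the fit with no filter on low counts called none of them. Fits with a single ONX-0914 library gave a Log2FC against control of 2.52 for Kcnh6 without replicate 2 and of 2.32 for Kcnu1 without replicate 1.

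Other genes of potassium conductance were counted for comparison. Of 13 inward rectifier genes (Kcnj), 11 were tested and none was called by edgeR, with 2 higher and 2 lower at an unadjusted p under 0.05 in ONX-0914 against control (36.4%, against 18.6% of all genes). The smallest p belonged to Kcnj3 (GIRK1), which had 253 to 292 CPM in control, 264 and 235 CPM with DMSO, and 151 and 149 CPM with ONX-0914 (Log2FC = −0.90, SE 0.166, FDR = 0.0742, edgeR). Of 19 genes whose products bind or scaffold these channels, 16 were tested, none was called by edgeR, and 2 were higher and 4 lower at an unadjusted p under 0.05 (37.5%, against 18.6% of all genes). The higher ones were Dlg1 (SAP97), a scaffold protein, with a Log2FC of 0.40, and Lrrc55, of a BK gamma subunit, with 1.49. Lrrc55 had 7.13 to 10.4 CPM in control and 9.31 and 36.0 CPM with ONX-0914, so that only replicate 2 exceeded the control range. The lower ones were Lgi1, a secreted ligand in Kv1 complexes, Dlg4 (PSD-95), and the calmodulin genes Calm2 and Calm3, the calcium sensors of SK and Kv7 channels. Their Log2FC values were −0.56, −0.48, −0.96 and −0.75.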

How the data were processed

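Total RNA from hippocampus was made into directional libraries and sequenced single-end. The authors deposited whole-number read counts per gene, 1 file per library, without normalization. The submitters' processing notes name Trimmomatic 0.39, STAR 2.7.3a, featureCounts 2.00 and GRCm39. The annotation and the strand setting of the counting are not given in the sources used here, so that reads of overlapping and antisense genes may be misassigned. Of the reads, 89.6% to 91.4% were assigned to a gene, and unassigned reads stayed out of the totals and tests. Symbols, gene types and exon lengths came from GENCODE M21 (GRCm38), which holds 52135 of 55416 identifiers and 99.829% of the counts, and no gene coordinates are given because the builds differ.

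The tests used edgeR 4.0.16 under R 4.3.3. After filterByExpr, counts were scaled by TMM (factors 0.965 to 1.10) and fitted with glmQLFit and glmQLFTest in 1 model over all 7 libraries, followed by Benjamini–Hochberg adjustment over all 13152 genes tested. The biological coefficient of variation common to all genes was 0.249. Log2FC values come from the fitted model (prior count 0.125), and their SE is the Log2FC divided by the square root of the F statistic. Totals of 2842675 to 13782270 counts set the precision, and 3 counts correspond to 0.218 to 1.06 CPM. Intervals of ratios are exact 95% intervals of the counts and cover counting error only. Alternatives were DESeq2 1.42.0, limma voom (limma 3.58.1), the earlier form of the edgeR fit, RLE size factors, total counts, other filters, the compared groups alone, the replicate number as a block and each library left out in turn, and the fits were tested on simulated counts.

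The genes, subfamilies and marker lists were chosen with earlier results of these data known. The genes named are those called in any comparison, up to 10 lower and 10 higher genes of smallest p in ONX-0914 against control among those with both ONX-0914 libraries on 1 side of control (10 and 7 there were), the 3 lower and 3 higher of smallest p in each other comparison, the highest level of each subfamily, the 6 genes with the largest difference between the ONX-0914 libraries and those not tested. Kcnt2, Kcnab3, Kcnb2, Kcnq3, Kcnn2, Kcnn3, Kcnk4, Kcnj3, Lgi1, Dlg1, Dlg4, Calm2, Calm3 and Lrrc55 were named after their values were seen. Some genes of the group enter the counts, medians and shares but are not reported here one by one.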

Additional observations from a re-analysis of the deposited data

Results flagged for a closer look

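Beside the protein-coding genes, 4 antisense RNA genes carry symbols of these series and entered no comparison of the report. Kcnq1ot1, the imprinted antisense RNA that overlaps Kcnq1, stood above the control level with ONX-0914, at a mean of 16.1 CPM against 7.92 ± 1.02 CPM (SD, n = 3) in control. The libraries had 6.77, 8.72 and 8.26 CPM in control, 11.8 and 8.57 CPM with DMSO, and 10.8 and 21.3 CPM with ONX-0914, so that the DMSO and ONX-0914 libraries overlapped. It was not called (Log2FC = 1.05, SE 0.336, FDR = 0.175, edgeR's quasi-likelihood test). Its count depends on the strand setting of the counting, while Kcnq1 itself had 23 counts over all libraries.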

How the results depend on the processing

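For ONX-0914 against control, the count of called genes was 0 under limma voom, the earlier fit, RLE size factors, total counts, at least 10 counts in every library, the compared groups alone and the replicate block, 2 with DESeq2 and 2 with no filter on low counts (Kcnt1 and Kcnab2 in each), and 0 to 28 without single libraries. Against DMSO it was 2 with DESeq2, 3 with no filter (Kcnh4 added) and 0 to 23 without single libraries, and for DMSO against control 0 to 1. Only the ONX-0914 libraries, when left out, gave these higher counts. The fit with no filter also called more of all genes. Against control it called 2.155% of 26822 genes, where the main fit called 0.114% of those it tested. Against DMSO the shares were 1.107% and 0.046%. Whether the replicate numbers pair the libraries was not settled. Deviations of same-numbered libraries correlated between −0.096 and 0.064, and those of differently numbered libraries between −0.064 and 0.096. In a group of 2 libraries the deviations mirror each other, so these correlations cannot exclude pairing. The replicate block called 0 of the potassium channel genes in each comparison, but so did the main fit. Of 864 alternative Log2FC values for 55 selected pairs of gene and comparison, 764 kept their direction and side of the threshold, 72 passed it and 28 changed direction. These pairs do not cover all genes tested. Over all 50 genes, the Log2FC against control changed sign for 14 without ONX-0914 replicate 1 and for 16 without replicate 2. Kcng4 was −0.16 with limma voom and −0.049 with the replicate block, Kcnh7 −0.047 and −0.079, Kcnb2 0.0005 with the block and 0.10 with total counts, Kcnma1 0.085 and Kcnn1 0.10 with total counts, where the median of all genes was 0.19. The cause was not tested. Over the fits without 1 library, the Log2FC ranged from −0.46 to 1.57 for Kcna5, −0.043 to 1.07 for Kcnab3, −0.50 to 0.21 for Kcnb2, −0.20 to 0.41 for Kcnc1, −2.80 to 0.15 for Kcng2, −0.90 to 1.09 for Kcng4, −0.56 to 1.41 for Kcnh3, −1.04 to 0.78 for Kcnh7, −0.016 to 0.58 for Kcnk1, −0.02 to 1.81 for Kcnk4, −0.19 to 1.16 for Kcnk6, −0.24 to 1.37 for Kcnmb4, −0.41 to 0.18 for Kcnn1, −0.22 to 1.33 for Kcnn2, −0.35 to 1.02 for Kcnn3, −0.35 to 0.93 for Kcnq3, −0.83 to 1.41 for Kcns1 and −1.01 to 0.79 for Kcnt2. The median control level was 4.26 CPM per kb with the longest transcript as length, 3.78 with total counts and 3.68 to 3.96 without single control libraries. With 2 treated libraries per group, a gene's spread rests on few values, and genes under about 10 counts per library cannot show moderate differences.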
